A study of Mus musculus with 6 samples.

Results

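The keratins *Krt7*, *Krt8*, *Krt18* and *Krt19*, which are typical of simple (single-layered) epithelia, were examined in primary mouse keratinocytes with and without iASPP, the protein encoded by *Ppp1r13l*. They are 4 of the 55367 gene names counted. All cultures came from the skin of 2-day-old pups of the genotype *Ppp1r13l* flox/flox;Cre+ERT, on a mixed C57BL/6 and 129/Sv background, in which a tamoxifen-inducible Cre expressed from the ROSA26 locus, and so not restricted to keratinocytes, removes exon 8 of *Ppp1r13l*. Each of 3 batches held a culture given tamoxifen (iASPP KO, n = 3) and a culture without it (iASPP WT, n = 3). The new medium was added at 24 h and the cells were kept for 4 days in low calcium. Tamoxifen is given as 1 mM in the sample labels and as 1 μM in the study's methods. WT cultures received no tamoxifen, so the drug and the deletion cannot be told apart. RNA depleted of ribosomal RNA was sequenced as single reads of 42 bases, with totals of 24544822, 23556669 and 22136525 counts in KO batches 1, 2 and 3 and 21353368, 25157117 and 20202517 in WT batches 1, 2 and 3.

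Keratin filaments are obligate heteropolymers of a type II and a type I chain. *Krt7* and *Krt8* encode type II chains, and *Krt18* and *Krt19* encode type I chains. *Krt8* with *Krt18* is the first keratin pair of the embryo and the main pair of liver and gut epithelium, *Krt7* marks many ductal and glandular epithelia, and *Krt19* is the smallest keratin, with almost no tail domain. Basal keratinocytes instead assemble filaments of *Krt5* and *Krt14*, and replace them by *Krt1* and *Krt10* when they differentiate. In normal skin, simple-epithelium keratins are found in Merkel cells, sweat glands and parts of the hair follicle, and cultured keratinocytes can express them at low levels.

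*Krt7* lies at chr15:101411043-101430313 on the plus strand (GRCm38), *Krt8* at chr15:101996698-102004482 on the minus strand and *Krt18* at chr15:102028180-102032027 on the plus strand, in the type II keratin cluster. *Krt18* is a type I gene that sits beside *Krt8*, with 23697 bases between them in GENCODE vM21. *Krt19* lies at chr11:100140810-100148665 on the minus strand, in the type I cluster. Promoter windows of 300 bases, from 250 before to 50 after the RefSeq start (GRCm38.p6), matched 3 of the 4 genes by symbol, and *Krt19* had no entry. The stretches before the first annotated base of the principal transcript are shown for *Krt7* (chr15:101412153-101412401, plus strand, in an intron of a longer *Krt7* transcript and partly in an exon of a non-coding one) and *Krt18* (chr15:102027966-102028179, plus strand, intergenic), because these genes differed most between batches. Capitals mark CACCTG, an E-box.
Krt7 upstream: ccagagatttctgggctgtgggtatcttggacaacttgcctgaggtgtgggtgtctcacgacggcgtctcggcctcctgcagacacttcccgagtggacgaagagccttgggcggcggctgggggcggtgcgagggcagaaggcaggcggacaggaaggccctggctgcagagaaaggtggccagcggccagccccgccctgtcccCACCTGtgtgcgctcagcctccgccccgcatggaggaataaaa
Krt18 upstream: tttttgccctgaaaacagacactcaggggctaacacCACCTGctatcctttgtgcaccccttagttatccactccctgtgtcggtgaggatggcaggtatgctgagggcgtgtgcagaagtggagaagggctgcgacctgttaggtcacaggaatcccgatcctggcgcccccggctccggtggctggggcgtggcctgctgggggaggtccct

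The E-box CACCTG was present, on either strand, in all 3 windows and in 20.2% of all 32851 promoter windows. This motif was picked out after its matches were seen. In *Krt8* the match lay within the annotated gene, and the stretch before its first annotated base held none. The AP-1 motif TGANTCA was in none of the 3 windows and in 7.81% of all windows. GGGCGG, the core of a GC box, was found in the window of *Krt7*, and in 35.7% of all windows. TATAAA was found in the window of *Krt8*, and in 13.6% of all windows. Its matches in *Krt8* began at -1 and -3 from the RefSeq start, also within the annotated gene. These matches describe letters in a window and not binding.

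The targeted gene was measured first as a check of the labels. *Ppp1r13l* was at 14.3, 17.7 and 5.91 CPM (read counts scaled to the TMM-adjusted total of each library) in KO batches 1, 2 and 3 and at 32.7, 45.1 and 21.0 CPM in WT batches 1, 2 and 3. Every KO culture lay below every WT culture. The log2 fold change was -1.45 (SE 0.18; edgeR quasi-likelihood test, adjusted p = 0.0030), and the within-batch values were -1.19, -1.34 and -1.82. Transcripts that lack exon 8 are still counted over the remaining exons. In the fit without the batch block the *Ppp1r13l* log2 fold change was -1.38 with edgeR adjusted p = 0.973, where the range over its 11 alternatives was 5.2e-11 to 0.973.

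Before the keratins, the make-up of the cultures was described with marker lists. All 8 keratinocyte markers were above 3 counts in every library, and their summed level was 29607, 27337 and 30088 CPM in KO batches 1 to 3 and 33193, 28243 and 28682 CPM in WT batches 1 to 3, led by *Krt14*. The 8 fibroblast markers summed to 39.4, 54.0 and 469 CPM in KO and to 36.3, 47.0 and 683 CPM in WT, led by *Col1a2*. Both batch 3 cultures therefore held far more fibroblast RNA than those of batches 1 and 2, and all 8 fibroblast markers passed the test between batches, where 15.8% of all genes, 5 of 8 keratinocyte markers and 5 of 7 melanocyte markers also passed. *Vim*, which encodes the intermediate filament protein of mesenchymal cells, was at 157 and 132 CPM in the KO and WT cultures of batch 3 and at 13.6 to 16.6 CPM in the other 4. In a principal component analysis of 8775 genes, the first component (62.7% of the variance) placed both batch 3 cultures apart from the others. The 4 keratins are therefore also given without batch 3.

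Markers were also summed for the cell types of skin that normally contain simple keratins. The 10 Merkel cell markers summed to 2.67, 2.38 and 7.61 CPM in KO and to 5.15, 2.09 and 6.73 CPM in WT, led by *Piezo2* at a mean of 0.962 CPM, where 3 counts correspond to 0.123 to 0.141 CPM. *Krt20*, the Merkel cell keratin, had 0, 0 and 13 counts in KO and 6, 4 and 30 in WT. Of 10 gland luminal markers, *Elf5* and *Lalba* had 0 counts in all libraries, and the sum (44.8, 38.7 and 39.3 CPM in KO; 63.0, 48.9 and 47.0 CPM in WT) came mostly from *Esr1* (30.5 to 53.1 CPM). The 10 hair follicle markers summed to 70.6, 75.8 and 103 CPM in KO and to 70.4, 85.2 and 78.3 CPM in WT, led by *Sox9*, with *Shh* at 0 in all libraries. Melanocyte markers (7 genes, led by *Pmel*) summed to 894, 431 and 1065 CPM in KO and to 1126, 367 and 1053 CPM in WT, and were thus lowest in batch 2. The 8 macrophage or leukocyte markers summed to 65.4, 70.1 and 82.8 CPM in KO and to 43.9, 60.3 and 65.6 CPM in WT. Different genes led this sum: *Lyz2* was at 59.1 and 49.6 CPM in the KO and WT cultures of batch 3 and at 1.11 to 4.81 CPM elsewhere, while *Cd68* was at 10.9 and 8.95 CPM in batch 3 and at 29.8 to 42.5 CPM elsewhere. Endothelial markers (6 genes, led by *Pecam1*) summed to 3.02 to 14.6 CPM. The part of these cells in the keratin values was not tested, and in bulk RNA, fewer cells of a type and less RNA per cell cannot be told apart.

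**Figure D1:**
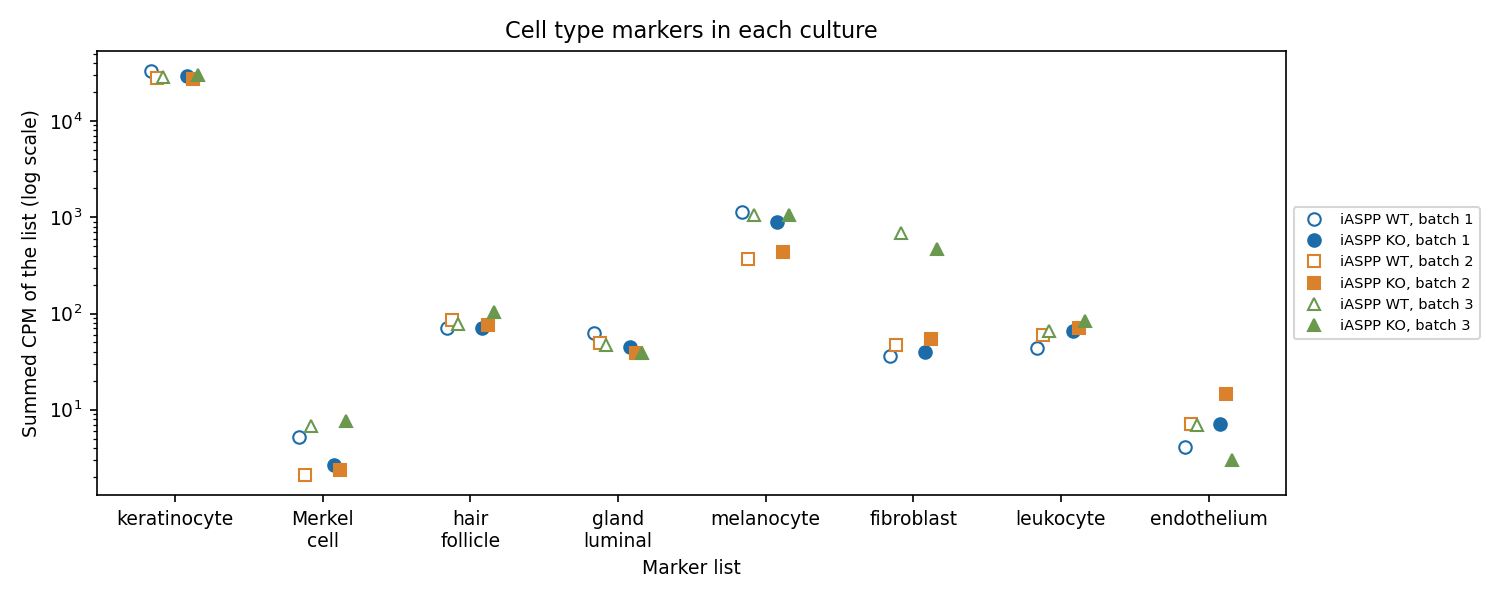
Summed CPM of each marker list (log axis) in the 6 cultures, with open symbols for iASPP WT and filled symbols for iASPP KO. The fibroblast sums of batch 3 (469 and 683 CPM) stand above those of the other cultures (36.3 to 54.0 CPM), while Merkel cell sums stay at 2.09 to 7.61 CPM.

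*Krt7*, the type II keratin of ductal epithelia, was the simple keratin with the most reads. It had 1039, 1177 and 790 counts in KO batches 1, 2 and 3, or 46.3, 52.8 and 33.6 CPM. In WT batches 1, 2 and 3 it had 1106, 946 and 275 counts, or 51.8, 38.8 and 12.2 CPM. The WT culture of batch 3 was the low one, and the groups overlapped, with means of 44.2 ± 9.80 CPM in KO and 34.3 ± 20.2 CPM in WT (SD, n = 3). Within batches 1, 2 and 3 the log2 fold change of *Krt7* was -0.16, 0.44 and 1.45, so that its direction differed between batches. The fitted value was 0.56 (SE 0.25; 95% confidence interval -0.00067 to 1.12) and did not pass the threshold (edgeR adjusted p = 0.299). Without batch 3 the *Krt7* log2 fold change was 0.14 (SE 0.16). It was 0.63 (SE 0.32) without batch 2 and 0.94 (SE 0.24) without batch 1, where it missed the threshold (edgeR adjusted p = 0.0605).

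*Krt8*, the type II partner of *Krt18*, was scarce. It had 31, 89 and 66 counts in KO batches 1, 2 and 3, or 1.38, 4.00 and 2.80 CPM. In WT batches 1, 2 and 3 it had 12, 31 and 8 counts, or 0.562, 1.27 and 0.356 CPM. Every KO culture lay above every WT culture, although the lowest KO value and the highest WT value came from 31 counts each. The exact Poisson 95% intervals of those counts, which cover counting error only, were 0.938 to 1.96 CPM for KO batch 1 and 0.864 to 1.80 CPM for WT batch 2. The means were 2.73 ± 1.31 CPM in KO and 0.730 ± 0.480 CPM in WT (SD, n = 3). Within batches 1, 2 and 3 the log2 fold change of *Krt8* was 1.18, 1.59 and 2.7. The fitted value was 1.94 (SE 0.67; 95% confidence interval 0.45 to 3.43), or 3.84-fold, and it did not pass after adjustment over all genes (edgeR unadjusted p = 0.0155, adjusted p = 0.165). Without batch 3 the *Krt8* log2 fold change was 1.48 (SE 0.82).

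*Krt18*, the type I partner of *Krt8*, ranged from 2.14 to 37.6 CPM. It had 393, 838 and 165 counts in KO batches 1, 2 and 3, or 17.5, 37.6 and 7.01 CPM. In WT batches 1, 2 and 3 it had 359, 407 and 48 counts, or 16.8, 16.7 and 2.14 CPM. Batch 3 was low in both groups, KO batch 2 was high, and the groups overlapped, with means of 20.7 ± 15.6 CPM in KO and 11.9 ± 8.44 CPM in WT (SD, n = 3). The pair of batch 1 was nearly level, at a within-batch log2 fold change of 0.06, against 1.17 in batch 2 and 1.67 in batch 3. The fitted value was 0.93 (SE 0.29; 95% confidence interval 0.29 to 1.57), or 1.91-fold, and it did not pass after adjustment (edgeR unadjusted p = 0.0086, adjusted p = 0.116). The *Krt18* call depended on the setting: over 11 alternatives its adjusted p ran from 0.0016 to 0.978, and it passed in 4 of them. These were DESeq2 (adjusted p = 0.0376), no filter on low counts (edgeR adjusted p = 0.0016), the fit without batch 1 (log2 fold change 1.41, edgeR adjusted p = 0.0142) and the fit without batch 3 (log2 fold change 0.62, edgeR adjusted p = 0.0326). Without batch 2 the *Krt18* log2 fold change was 0.82 (SE 0.40) and did not pass (edgeR adjusted p = 0.446).

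*Krt19*, the short type I keratin, was scarce as well. It had 58, 16 and 36 counts in KO batches 1, 2 and 3, or 2.58, 0.718 and 1.53 CPM. In WT batches 1, 2 and 3 it had 23, 20 and 31 counts, or 1.08, 0.820 and 1.38 CPM. KO batch 1 was high and the other 5 cultures lay between 0.718 and 1.53 CPM, with overlapping groups at 1.61 ± 0.935 CPM in KO and 1.09 ± 0.281 CPM in WT (SD, n = 3). Within batches 1, 2 and 3 the log2 fold change of *Krt19* was 1.20, -0.17 and 0.14. The fitted value was 0.41 (SE 0.73), with a 95% confidence interval of -1.20 to 2.03 wide enough for a change in either direction (edgeR adjusted p = 0.842). Without batch 1 the *Krt19* log2 fold change was -0.013 (SE 1.11). It was 0.71 (SE 0.84) without batch 2 and 0.56 (SE 1.02) without batch 3.

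**Figure D2:**
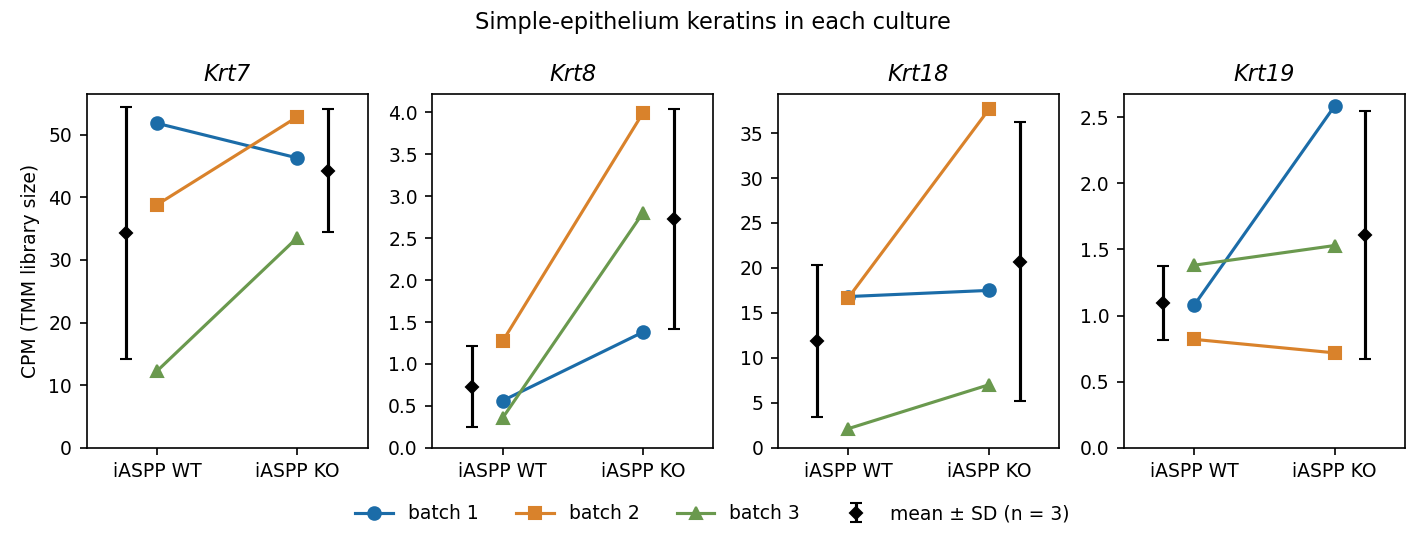
CPM of each simple-epithelium keratin in the 6 cultures, with lines joining the WT and KO cultures of one batch and diamonds for the group mean ± SD (n = 3). *Krt8* is higher in KO in all 3 batches (1.38, 4.00 and 2.80 against 0.562, 1.27 and 0.356 CPM), while the lines of *Krt7* and *Krt19* run in both directions.

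Counted together, 0 of the 4 keratins passed the edgeR test at an adjusted p of 0.05, against 4.12% of the 14916 genes tested (323 higher and 291 lower in KO). At an unadjusted p under 0.05 there were 2 of 4 (*Krt8* and *Krt18*), against 16.7% of all genes. DESeq2 called 1 (*Krt18*) of the 3 keratins that it gave an adjusted p, against 7.22% of the 12291 genes with an adjusted p, and it gave *Krt19* none. *Krt8* and *Krt18* were higher in KO in all 3 batches, as were 19.5% of all genes. Only *Krt8* had every KO culture above every WT culture, a pattern shown by 5.26% of all genes. The median log2 fold change of the 4 keratins was 0.75, beside 0.0057 over all genes tested. With 4 genes that share cultures, these counts are a description. In the fit without the batch block 0 of the 4 keratins were called, and so were 0 genes in either direction, with 691 genes at an unadjusted p under 0.05. With no filter beyond 1 count, 2 of the 4 passed (*Krt7* and *Krt18*), and over all 31932 genes of that fit 624 were called higher and 491 lower.

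**Figure D3:**
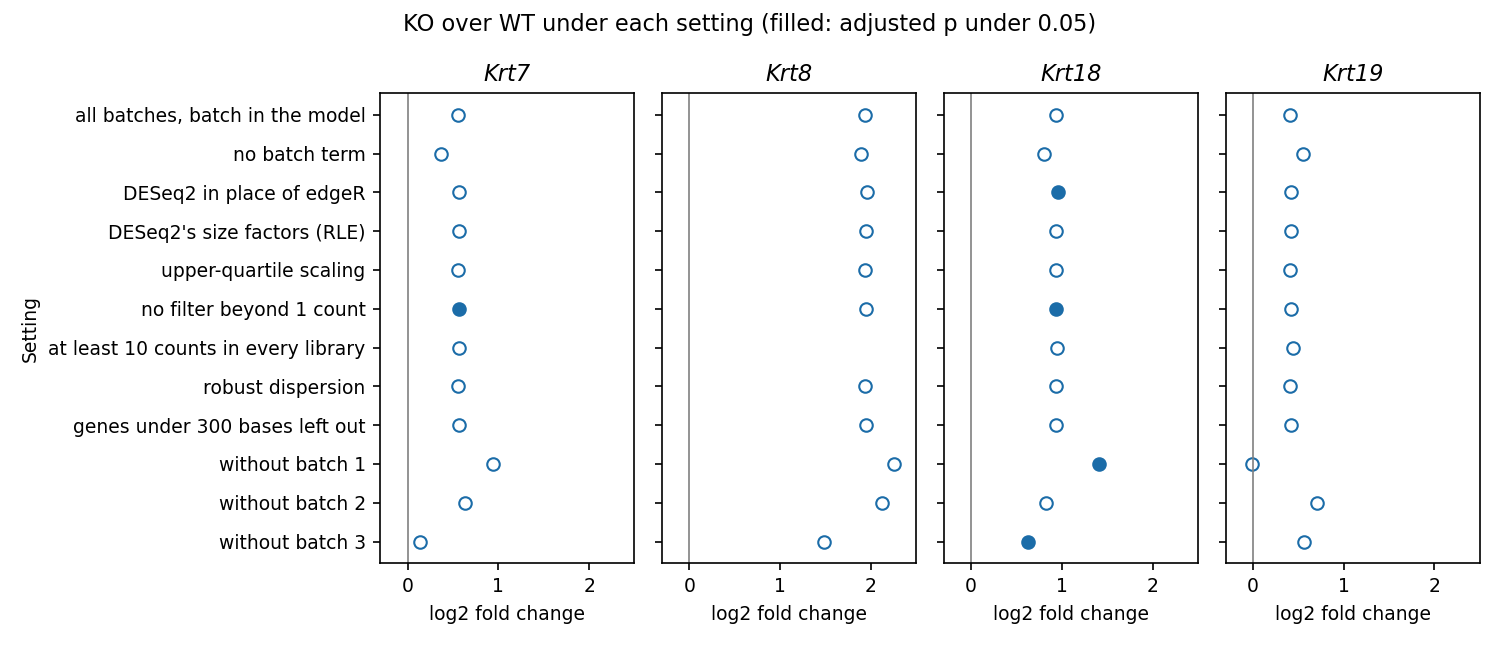
Log2 fold change of each simple-epithelium keratin (KO over WT, horizontal axis) under each processing setting, filled where the adjusted p was under 0.05. *Krt18* is filled in 4 alternatives and *Krt7* in 1, and *Krt8* has no point where at least 10 counts were required in every library.

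The F test between batches in the same edgeR fit called 2 of the 4 keratins, against 15.8% of all genes. *Krt18* was lower in batch 3 than in batches 1 and 2 (edgeR adjusted p = 0.0025). *Krt7* was called too (edgeR adjusted p = 0.0420), with its lowest value in each group in batch 3. *Krt8* (edgeR adjusted p = 0.436) and *Krt19* (edgeR adjusted p = 0.646) were not called between batches. Neither call remained when batch 3 was left out, at edgeR adjusted p = 0.123 for *Krt18* and 0.889 for *Krt7*. Most genes lost this call too: 689 of 15261 genes were called between batches in that fit, against 2354 of 14916 with all batches. The fibroblast markers were high in the same batch in which *Krt18* and *Krt7* were low, and their part was not tested.

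Whether the keratins moved by different amounts was asked from the differences between their within-batch log2 fold changes. For *Krt7* minus *Krt8* these were -1.34, -1.14 and -1.25 in batches 1, 2 and 3, with *Krt8* at 8 to 31 counts in WT, so counting error is wide and the closeness of these values was not tested. For *Krt8* minus *Krt18*, the classical pair, they were 1.12, 0.42 and 1.03. For *Krt7* minus *Krt18* they were -0.22, -0.72 and -0.23. For the 3 pairs with *Krt19* the sign was not the same in every batch, with means of 0.19 for *Krt7* minus *Krt19*, 1.43 for *Krt8* minus *Krt19* and 0.58 for *Krt18* minus *Krt19*. The sign for *Krt8* minus *Krt19* rested on -0.02 in batch 1 and on the prior count, since with a prior count of 0.5 it was the same in every batch (mean 1.53). An exact two-sided sign-flip permutation test over 3 batches cannot give a p below 0.25, which the first 3 pairs reached (adjusted p = 0.5 over 6 pairs).

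Levels of different genes were compared per length, as TPM (counts per base of exon, scaled to one common total) within a library. *Krt18* stood at 12.2, 33.9 and 5.66 TPM in KO batches 1, 2 and 3 and at 16.8, 15.0 and 2.29 TPM in WT. *Krt7* stood at 6.56, 9.71 and 5.53 TPM in KO and at 10.6, 7.12 and 2.67 TPM in WT. *Krt18* thus exceeded *Krt7* in 5 of 6 libraries with the length of all exons of a gene name, which is 7049 bases for *Krt7*. With the principal transcript of *Krt7* (4094 bases), an alternative chosen after seeing the data, the ratio of *Krt7* to *Krt18* became 0.928, 0.493 and 1.68 in KO and 1.08, 0.816 and 2.01 in WT, so the order of these genes depends on the length taken. *Krt8* was at 0.705, 2.64 and 1.66 TPM in KO and at 0.412, 0.840 and 0.280 TPM in WT. *Krt19* was at 1.39, 0.501 and 0.957 TPM in KO and at 0.834, 0.572 and 1.14 TPM in WT, above *Krt8* in 3 libraries and below it in the other 3. *Krt18* exceeded its partner *Krt8* in every library, by 3.41-fold (KO batch 3) to 40.8-fold (WT batch 1).

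With the length of all exons, the 4 simple keratins together made up 0.0698%, 0.131% and 0.0521% of keratin TPM in KO batches 1, 2 and 3 and 0.0619%, 0.0581% and 0.0135% in WT. *Krt14* alone, at 8525 to 14645 TPM, was 239 to 2295 times their sum.

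**Figure D4:**
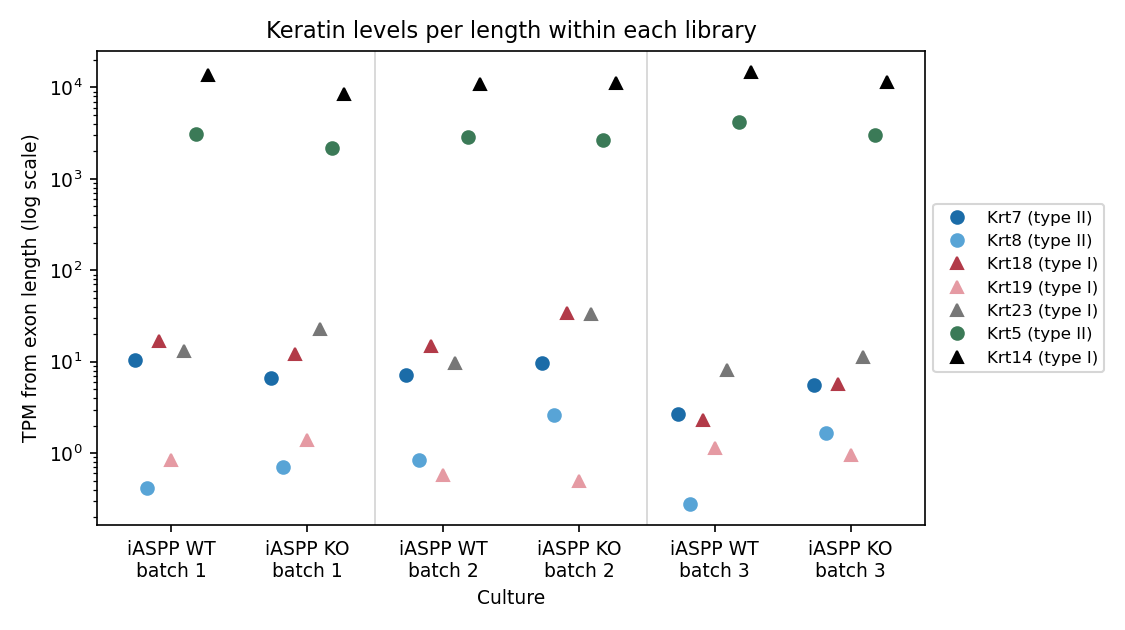
TPM of 7 keratins in each library (log axis), circles for type II and triangles for type I chains. *Krt14* and *Krt5* lie at 2167 TPM or above in all libraries, *Krt18* and *Krt7* lie between 2.29 and 33.9 TPM, and *Krt8* and *Krt19* lie between 0.280 and 2.64 TPM.

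Sequence shared with other genes limits some of these counts. Of the 1917 windows of 42 bases in the *Krt8* transcript, 28.6% also occur in the pseudogene *Krt8-ps*, which itself had 0, 0 and 0 counts in KO and 0, 1 and 1 in WT. Reads from such windows that aligned equally well to both places would be missing from *Krt8*, so its level is uncertain. *Krt18* shares 3.37% of its windows with *Gm5200* and *Gm17847*, both at 0 counts in all libraries. *Krt7* shares 0.765% and *Krt19* 0% of windows. Among the other keratins examined this way, the shared part ran from 0% (*Krt23* and *Krt78*) to 59.7% (*Krt6a*). It was 52.8% for *Krt6b*, 42.8% for *Krt16*, 19.6% for *Krt14* and 13.3% for *Krt5*. Their levels, and the shares of keratin TPM, are therefore uncertain as well. The antisense gene *Gm671* overlaps the start of *Krt7* and had 0 counts in all libraries. *Gm36026* runs opposite to *Krt8* across its start and had 3 counts in WT batch 3 and 0 elsewhere. Counting used the strand.

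Among the other keratins, 44 were in the table and 20 were tested, of which 2 were higher and 3 lower in KO, with a median log2 fold change of -0.02. Over all genes tested, 4.12% were called in either direction. *Krt23*, a type I keratin also found in simple epithelia, rose in KO. It was at 36.2, 40.5 and 15.1 CPM in KO and at 14.2, 11.7 and 8.24 CPM in WT, with no overlap. Its log2 fold change was 1.34 (SE 0.21; edgeR adjusted p = 0.0075), and the within-batch values were 1.34, 1.78 and 0.87. Without batch 2 it missed the threshold (edgeR adjusted p = 0.0525). *Krt80*, the other tested keratin of that list, had a log2 fold change of -0.01 (SE 0.19).

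Of 7 basal and wound keratins, *Krt17* fell, and *Krt5*, *Krt14*, *Krt15*, *Krt6a*, *Krt6b* and *Krt16* were not called. *Krt17* was at 20010, 16934 and 11231 CPM in KO and at 23785, 23555 and 22272 CPM in WT (log2 fold change -0.57, SE 0.14; edgeR adjusted p = 0.0470). *Krt5* (log2 fold change -0.06) and *Krt14* (-0.02) were close to level, and *Krt15* had the largest value among those not called (1.09, SE 0.36; edgeR adjusted p = 0.145). Of 8 suprabasal keratins tested, *Krt78* rose (0.63, SE 0.12; edgeR adjusted p = 0.0198). *Krt10*, the type I keratin of differentiating cells, fell (-1.31, SE 0.29; edgeR adjusted p = 0.0330), but by -0.15 within batch 3. *Krt77* also fell (-1.33, SE 0.32; edgeR adjusted p = 0.0466). *Krt1*, *Krt2*, *Krt79*, *Krt4* and *Krt76* were not called. *Krt32*, *Krt75* and *Krt84*, the 3 tested hair keratins, were not called either. *Krt10* lost its call with DESeq2, with robust dispersion and without batch 1 (edgeR adjusted p = 0.161). *Krt17* lost its call with robust dispersion and where at least 10 counts were required in every library. *Krt78* lost its call without batch 1 (edgeR adjusted p = 0.118), and *Krt77* without batch 1 (edgeR adjusted p = 0.0748) and without batch 3 (0.0594). When batch 2 was left out, 0 of these 20 keratins passed, where 1.91% of all genes did.

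**Figure D5:**
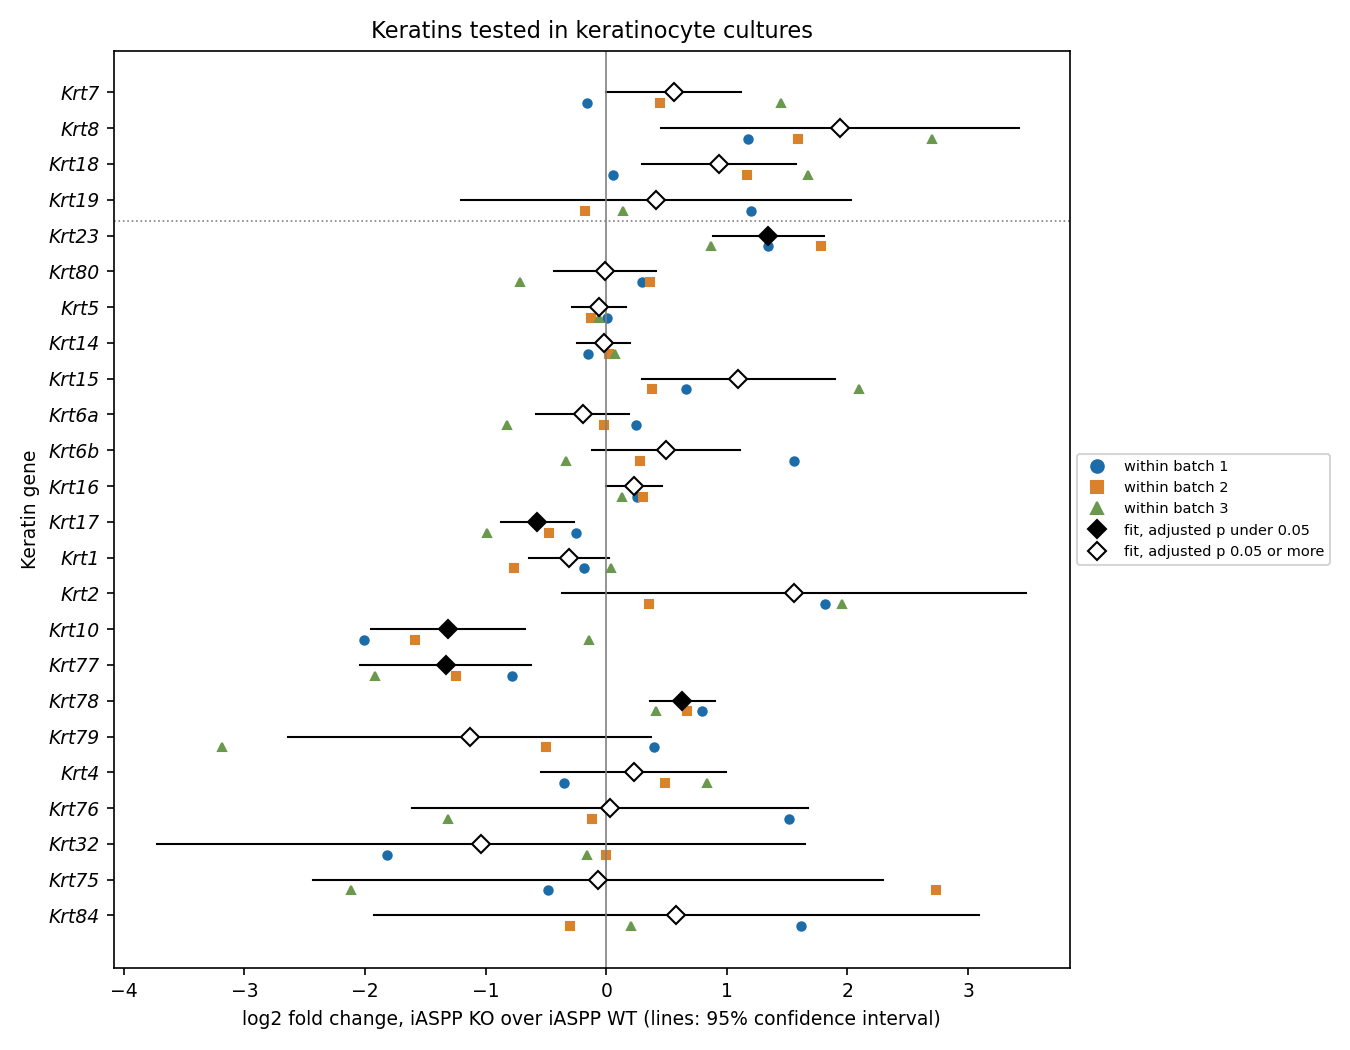
Log2 fold change (KO over WT) of the 4 simple-epithelium keratins, above the dotted line, and the 20 other keratins tested, as the fitted value with its 95% confidence interval and the 3 within-batch values. Filled diamonds mark the 5 keratins with an adjusted p under 0.05, and none of these lies above the line.

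Genes that work with these keratins were taken from 3 lists. Over all genes tested, 4.12% were called (323 higher and 291 lower in KO), and the list counts beside that share are a description, since the lists are not an independent choice of genes. Of 25 filament partners, *Ppl*, which encodes the desmosome and envelope linker periplakin, rose (log2 fold change 0.52, SE 0.11; edgeR adjusted p = 0.0340), and *Hspb1*, which encodes a small heat shock protein, fell (-0.59, SE 0.13; edgeR adjusted p = 0.0364). The other 23 were not called, and the list's median was -0.03. Of 26 tested transcription factors reported at simple keratin genes, *Junb* (0.50, SE 0.11; edgeR adjusted p = 0.0296) and *Cebpb* (0.54, SE 0.12; edgeR adjusted p = 0.0389) rose, with a list median of 0.20. Of 27 tested membrane and junction genes of simple epithelia, 3 rose and 0 fell, with a list median of 0.20. These were the claudins *Cldn3* (1.59, SE 0.28; edgeR adjusted p = 0.0142) and *Cldn4* (0.64, SE 0.13; edgeR adjusted p = 0.0238) and the membrane serine protease *Prss8* (0.79, SE 0.14; edgeR adjusted p = 0.0147). *Cldn3* was at 10.2, 16.1 and 14.9 CPM in KO and at 3.14, 8.16 and 3.39 CPM in WT, and its call was kept when any batch was left out. *Cldn4* and *Prss8* lost theirs without batch 1 (edgeR adjusted p = 0.111 and 0.0575). *Ppl*, *Hspb1*, *Junb* and *Cebpb* lost theirs without batch 1 (edgeR adjusted p = 0.181, 0.0650, 0.190 and 0.221) and without batch 2 (0.251, 0.271, 0.153 and 0.128). Without batch 3 more genes were called: 5 of 25 partners, 11 of 26 transcription factors and 5 of 27 junction genes, where 9.53% of all genes were.

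Marker genes called between the conditions were *Col1a2* (log2 fold change -0.55; edgeR adjusted p = 0.0428), *Col3a1* (-0.87; edgeR adjusted p = 0.0269) and *Csf1r* (1.11; edgeR adjusted p = 0.0206), the receptor for colony stimulating factor 1. These were 2 of 8 fibroblast markers and 1 of 6 tested macrophage or leukocyte markers, where 4.12% of all genes were called. The 6 fibroblast markers not called had values on both sides of 0, and the median of that list was -0.25. The collagens lost their calls without batch 3 (edgeR adjusted p = 0.238 and 0.0715) and without batch 2 (0.275 and 0.157), *Col1a2* also without batch 1 (0.105). *Csf1r* lost its call without batch 1 (edgeR adjusted p = 0.0612) and batch 2 (0.112).

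The genes whose log2 CPM followed each simple keratin most closely over the 6 libraries were sought among 8773 genes with a mean of at least 10 CPM. For *Krt7* they were *Fbxo6*, *Scamp1* and *Ctdnep1* (Pearson r 0.999, 0.997 and 0.997). For *Krt8* they included *Farsa* and *Mmp10* (r 0.998 and 0.986). *Mmp10* (log2 fold change 1.49; edgeR adjusted p = 0.0119) was itself called higher in KO, but not without batch 2 (edgeR adjusted p = 0.0905). For *Krt18* they were *Slc35e4*, *Sgpl1* and *R3hdm2* (r 0.998, 0.998 and 0.997). For *Krt19* they included the small RNA genes *Gm22858* and *Gm22980* (r 0.984 and 0.978). An r above 0.9 was found for 409 genes with *Krt7*, 126 with *Krt8*, 708 with *Krt18* and 25 with *Krt19*. With 6 libraries in 3 batches these values are a description and were not tested.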

How the data were processed

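RNA of 6 primary keratinocyte cultures (3 KO, 3 WT) was sequenced. The authors trimmed reads (cutadapt 2.10), aligned them with STAR 2.7.3 to mm10 and deposited raw counts per gene name (featureCounts 2.0.0, exons, reverse strand, GENCODE vM25). A deposited table of their own fold changes and p-values was not used. Library totals were 20202517 to 25157117 counts.

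The test was the quasi-likelihood F test of edgeR 4.0.16 (R 4.3.3), on genes kept by its filterByExpr function for the condition groups. The model held batch and condition, libraries were scaled by TMM, and p was adjusted by Benjamini-Hochberg over all 14916 genes with a threshold of 0.05. The standard error is the absolute log2 fold change over the square root of F. Within-batch values are differences of log2 CPM (prior count 2). TPM was computed from counts and exon length, and compares genes within a library only. The batch labels pair the cultures, and batch was kept as a block because the study adjusted for it. Deviations from the group means correlated at 0.302, 0.368 and 0.568 within batches and at -0.427 to 0.179 between different batches. Chi-square per gene between cultures of a group was 35.4 to 147, which leaves no sign of a duplicated library. Counting intervals cover counting error only.

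Alternatives were no batch block, DESeq2 1.42.0, its size factors, upper-quartile scaling, other filters, robust dispersion, no genes under 300 bases, each batch left out and, for pairs of keratins, a prior count of 0.5. Named genes are the 4 keratins, *Ppp1r13l*, tested keratins, called genes of the other lists (at most 6 each), genes that lead a marker sum, genes among the 3 closest by Pearson r, and overlapping or pseudogene partners. The members and lists were chosen with earlier results of these data known. Only the edgeR and DESeq2 fits were tried on simulated counts. The simulated batch differences had a set spread that was not taken from these data. Sequences are from RefSeq (GRCm38.p6), and transcripts for shared windows from GENCODE vM21. Figures used Python 3.11.15, pandas 2.3.3 and matplotlib 3.10.9.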

Additional observations from a re-analysis of the deposited data

How the results depend on the processing

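Over the alternatives, *Krt8* and *Krt18* had log2 fold changes above 0 in every fit that gave a value (1.48 to 2.26 and 0.62 to 1.41), as did *Krt7* (0.14 to 0.94). *Krt19* turned sign without batch 1 (leaving out a batch gave -0.013 to 0.71). *Krt8* gave no value with at least 10 counts in every library, since WT batch 3 had 8. *Krt7* passed with no filter beyond 1 count (0.56), and *Krt18* with that setting (0.94), with DESeq2 (0.96) and without batch 1 or batch 3 (leaving out a batch gave 0.62 to 1.41). *Krt7* minus *Krt8* moved to -1.36 with a prior count of 0.5, and *Krt8* minus *Krt19* went to 1.53 with one sign in all 3 batches. The cause of these shifts was not tested.

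Without the batch block, 0 genes were called higher and 0 lower in KO, 0 in any list of partners or other keratins, and *Ppp1r13l* was at -1.38; this paired design loses its calls without the block. No filter beyond 1 count gave 624 higher and 491 lower. Leaving out a batch gave 169 to 793 higher and 117 to 662 lower, with fewer cultures in each fit, and 689 to 2644 genes called between batches. The share of all genes called was 2.07%, 1.91% and 9.53% without batches 1, 2 and 3, and the listed genes called were 2, 0 and 6 other keratins, 0, 0 and 5 filament partners, 0, 0 and 11 transcription factors and 1, 3 and 5 junction genes. DESeq2, with 7.22% of all genes called, called 4 of 17 other keratins, 4 of 25 filament partners, 4 of 26 transcription factors and 4 of 25 junction genes. Changing the scaling (2 settings) changed no keratin's direction or call among the 4. Depth limits *Krt8* and *Krt19* most, at 8 to 89 and 16 to 58 counts.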
